A study of Mus musculus with 12 samples.

Results

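Wfdc17, Mcub, Kcne3 and Aif1 are 4 genes of myeloid cells, chosen from a table of 55322 genes by their FPKM values, each being lower in L-cDC2 than M-cDC2. The whole table was fitted together, and all 4 genes were among the 14538 genes that had at least 1 FPKM (fragments per kilobase of gene length, scaled to the assigned fragments of the library) in at least 3 libraries. Because the difference between L-cDC2 and M-cDC2 chose the genes, it is given here as a description with no test. The rule of choice did not use the CLP-cDC2 and CDP-cDC2 libraries, and the comparison between them was tested. The genes and tests were, however, chosen with earlier results of these data known.

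RNA was sequenced from conventional dendritic cells of type 2 (cDC2), which present antigen to CD4 T cells, isolated from mouse spleen 4 days after intraperitoneal lipopolysaccharide (LPS) at 5 mg/kg. All mice were given LPS, so no group shows the genes without it, and the stated age was 7 to 8 weeks. The L-cDC2 cells were tdTomato+ and the M-cDC2 cells tdTomato-, both from Il7r-Cre;Rosa26-lsl-tdTomato mice, in which any cell whose ancestors expressed Il7r (the receptor for interleukin-7, active in lymphoid progenitors) keeps the reporter. The growth notes name WT C57BL/6J for all samples, which does not match the reporter genotype on the labels of L-cDC2 and M-cDC2, and the strain of the reporter line is not stated. After transfer, CD45.2+ offspring of WT common lymphoid progenitors (CLPs) made up CLP-cDC2 and those of WT common dendritic cell progenitors (CDPs) made up CDP-cDC2; the progenitors had been injected into bone marrow of B6.SJL hosts, which were CD45.1+. Each of the 4 groups had 3 libraries. The labels do not say that the 3 libraries of a group came from separate mice, so the spread behind each p-value is between these libraries and may be technical. Whether L-cDC2 and M-cDC2 were sorted from the same mice is not stated either, and the main fit treated all libraries as unpaired.

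Each gene acts in another part of the myeloid cell. Wfdc17 encodes a small secreted protein with a WAP (whey acidic protein) fold, known in the mouse from activated macrophages and microglia. Mcub encodes a subunit of the mitochondrial calcium uniporter that resembles the pore-forming Mcu and lowers calcium uptake when it replaces it. Kcne3 encodes a single-pass accessory subunit of voltage-gated potassium channels, best known as the partner of Kcnq1 in epithelia. Aif1 encodes Iba1, a calcium-binding protein that bundles actin in membrane ruffles and serves as a standard marker of macrophages and microglia.

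In the deposited coordinates, for which the sources used here give no build, Wfdc17 (ENSMUSG00000069792) lay on the plus strand of chromosome 11 from 83594817 to 83597094, with 533 exonic bases in 3 blocks. Mcub (ENSMUSG00000027994) lay on the minus strand of chromosome 3 from 129708609 to 129763855, with 1318 exonic bases in 8 blocks. Kcne3 (ENSMUSG00000035165) lay on the plus strand of chromosome 7 from 99825709 to 99834076, with 1779 exonic bases in 7 blocks. Aif1 (ENSMUSG00000024397) lay on the minus strand of chromosome 17 from 35389967 to 35395044, with 1532 exonic bases in 7 blocks. Kcne3 alone of the 4 shared exonic bases with another gene, 9 of them with the minus-strand long non-coding RNA gene Gm34821, and the sources used here do not say if reads were counted by strand.

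The promoters of the 4 genes are shown because the genes were chosen for moving together between L-cDC2 and M-cDC2 and because PU.1 (Spi1), the ETS factor of myeloid cells, binds sites with a GAGGAA core. RefSeq lists 1 start for Wfdc17, Mcub and Aif1 and 2 starts for Kcne3. Each window runs from 250 bases before the start to 50 bases after it, 5′ to 3′ along the gene in the RefSeq build GRCm38.p6, and capitals mark GAGGAA read on either strand (TTCCTC where it is on the opposite strand). They are chr11:83703806-83704105 (plus strand) for Wfdc17, chr3:129970157-129970456 (minus strand) for Mcub, chr7:100176420-100176719 (plus strand) for the first Kcne3 start and chr17:35176003-35176302 (minus strand) for Aif1.
Wfdc17: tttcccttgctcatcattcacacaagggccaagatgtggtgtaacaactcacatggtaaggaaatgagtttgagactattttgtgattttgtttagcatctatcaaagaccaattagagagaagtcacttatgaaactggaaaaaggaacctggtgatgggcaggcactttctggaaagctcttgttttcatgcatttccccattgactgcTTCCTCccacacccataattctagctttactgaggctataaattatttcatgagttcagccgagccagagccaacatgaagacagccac
Mcub: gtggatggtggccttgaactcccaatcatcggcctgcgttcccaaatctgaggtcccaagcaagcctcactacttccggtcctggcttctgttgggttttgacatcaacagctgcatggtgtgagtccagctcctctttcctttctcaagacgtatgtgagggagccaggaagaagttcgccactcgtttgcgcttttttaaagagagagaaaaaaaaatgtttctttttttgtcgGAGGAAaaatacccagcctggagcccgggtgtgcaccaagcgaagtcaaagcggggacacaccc
Kcne3: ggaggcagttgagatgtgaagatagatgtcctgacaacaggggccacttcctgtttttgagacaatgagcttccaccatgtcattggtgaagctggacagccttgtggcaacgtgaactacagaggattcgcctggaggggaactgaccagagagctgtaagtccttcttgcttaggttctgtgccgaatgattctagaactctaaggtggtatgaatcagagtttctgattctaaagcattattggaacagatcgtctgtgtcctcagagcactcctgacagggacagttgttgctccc
Aif1: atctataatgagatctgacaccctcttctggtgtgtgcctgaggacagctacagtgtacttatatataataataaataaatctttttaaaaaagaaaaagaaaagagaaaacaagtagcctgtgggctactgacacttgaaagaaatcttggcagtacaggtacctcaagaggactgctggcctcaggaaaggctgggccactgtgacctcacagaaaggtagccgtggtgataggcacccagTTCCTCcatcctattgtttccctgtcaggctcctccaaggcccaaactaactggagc
GAGGAA was present once in the Wfdc17 window (positions -39 to -34 from the start, opposite strand), once in the Mcub window (-14 to -9, same strand) and once in the Aif1 window (-7 to -2, opposite strand). Neither Kcne3 window held it, which says only that these letters are not in those windows. The same letters occur in 28.3% of the 32851 RefSeq promoter windows of this length, so their presence is common. Of the other letters searched on both strands, TGTGGT (Runx) was in the Wfdc17 window, as in 16.8% of all windows. The interferon response pattern of GAAA, any 2 bases and GAAA was in the Aif1 window, as in 3.44% of all windows. GGAAGC, an ETS core that overlapped GAGGAA in the Wfdc17 window, was in that window and in both Kcne3 windows, as in 26.8% of all windows. TATAAA was in the Wfdc17 window only (13.6% of all windows), and GGAA followed by any 2 bases and GAAA (an ETS and IRF composite, 2.72%) and TTGCNNAA (C/EBP, 10.8%) were in none of the 5 windows. A match describes the letters and is not a bound site.

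Depth recovered from the FPKM steps ran from 26543345 to 73732243 assigned reads, both extremes among L-cDC2 libraries. The fewest reads behind any value of the 4 genes were 26, for Kcne3 in L-cDC2 replicate 2, and 3 reads were worth at most 0.212 FPKM for any of the genes in any library. CDP-cDC2 replicate 3 stood apart from the other libraries on the second principal component of all tested genes (-50.6, the others -22.1 to 32.0), and results that rest on it are given with and without it. M-cDC2 replicate 3 stood apart on the third component (-40.5, the others -16.5 to 24.9), and 1 alternative fit left out both libraries. Of the markers of the cDC2 label, the dendritic cell receptor Flt3 ranged from 86.2 to 121 FPKM, Sirpa from 38.1 to 163 FPKM and the dendritic cell factor Zbtb46 from 8.03 to 25.2 FPKM over the 12 libraries. In CLP-cDC2 and CDP-cDC2, Flt3 averaged 102 and 101 FPKM, Sirpa 41.0 and 110 FPKM, and Zbtb46 8.59 and 18.2 FPKM. Of 15 tested cDC2 identity genes, 10 were called lower in CLP-cDC2 than in CDP-cDC2 and 1 higher. Over all tested genes the shares were 6.12% and 7.02%. The cDC2 lectin gene Mgl2 was at 0.0492 to 0.419 FPKM in CLP-cDC2 libraries, against 1.07 to 1.98 FPKM in CDP-cDC2 libraries. Lymphoid marker lists and antigen receptor genes took 0.413 to 0.504% of assigned reads in L-cDC2 libraries, against 0.166 to 0.170% in M-cDC2 libraries. The share was 0.157 to 0.243% in CLP-cDC2 libraries and 0.154 to 0.182% in CDP-cDC2 libraries.

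Between tdTomato+ and tdTomato- cells of the reporter mice the L-cDC2 means of the 4 genes were 16.1 to 36.9% of the M-cDC2 means, with Wfdc17 the most and Kcne3 the least expressed per unit of length. Wfdc17 was at 30.5, 37.5 and 35.8 FPKM in L-cDC2 libraries, against 104, 110.4 and 110.5 FPKM in M-cDC2 libraries. The highest L-cDC2 library was far below the lowest M-cDC2 library, and the L-cDC2 mean was 31.9% of the M-cDC2 mean. Mcub was at 4.53, 6.37 and 5.86 FPKM in L-cDC2 libraries, against 16.3, 17.0 and 22.7 FPKM in M-cDC2 libraries. Again the libraries did not overlap, and the L-cDC2 mean was 29.9% of the M-cDC2 mean.

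Kcne3 was at 0.705, 0.551 and 1.37 FPKM in L-cDC2 libraries, against 5.57, 6.10 and 4.67 FPKM in M-cDC2 libraries. It had the largest proportional gap of the 4, with an L-cDC2 mean of 16.1% of the M-cDC2 mean, and the L-cDC2 libraries were themselves unequal, replicate 3 being the highest. Those values rested on 26 to 180 reads in L-cDC2 and 422 to 535 reads in M-cDC2. Aif1 was at 15.9, 12.7 and 16.2 FPKM in L-cDC2 libraries, against 38.9, 36.7 and 45.8 FPKM in M-cDC2 libraries. It had the smallest proportional gap, with an L-cDC2 mean of 36.9% of the M-cDC2 mean, and no overlap between libraries. On the log2(FPKM + 1) scale, which understates changes of genes with low values, L-cDC2 minus M-cDC2 was -1.63 for Wfdc17, -1.58 for Mcub, -1.80 for Kcne3 and -1.38 for Aif1. In this comparison 0.44% of tested genes were called lower and 6.67% were lower with no overlap between libraries, and nothing is read from the 4 genes against these shares since the comparison chose them. In bulk RNA, fewer cells that express a gene and less of its RNA per cell cannot be told apart. With the lymphoid lists and receptor genes removed and the values rescaled, the same differences were -1.62, -1.57, -1.80 and -1.38 in that order. Those genes held at most 0.504% of assigned reads in any library, so the rescaling could hardly move a value. It cannot show the part of other cells, which was not tested.

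**Figure D1:**
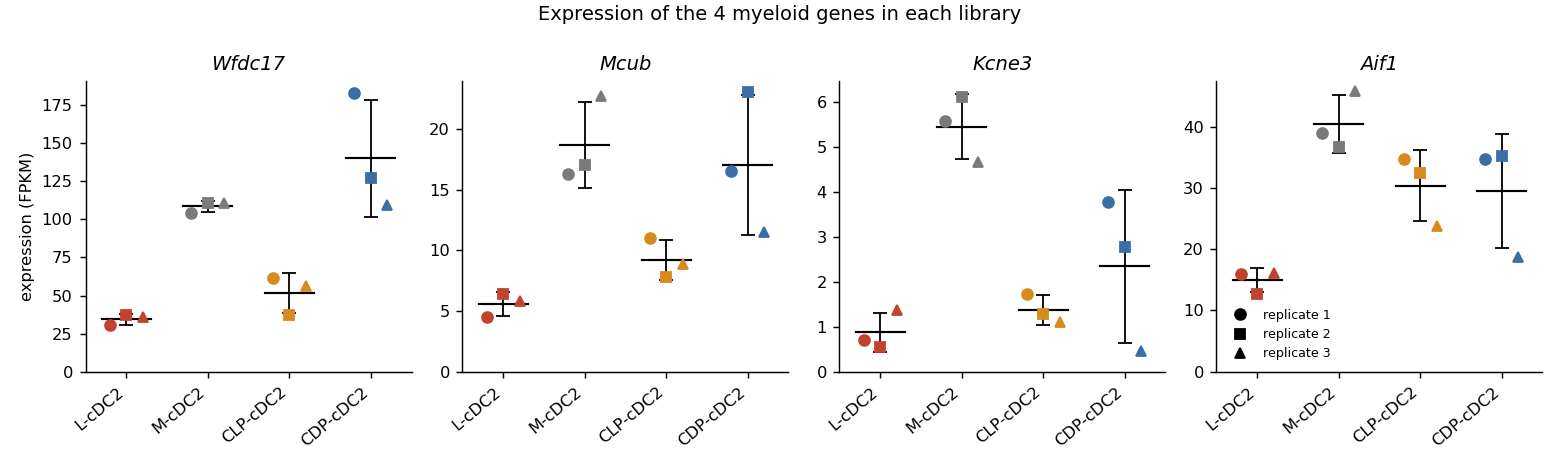
Expression in FPKM (vertical axes, linear from 0) of Wfdc17, Mcub, Kcne3 and Aif1 in each of the 12 libraries, with the shape of the point giving the replicate number, horizontal lines the group means and bars the SD (n = 3). L-cDC2 lies below M-cDC2 with no overlap in all 4 panels, while CLP-cDC2 lies clear of CDP-cDC2 for Wfdc17 and Mcub and overlaps it for Kcne3 and Aif1.

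The comparison of cDC2 grown from CLPs with cDC2 grown from CDPs asked whether the same 4 genes differ by progenitor after transfer. Wfdc17 and Mcub were lower in CLP-cDC2 and passed the test, and Kcne3 and Aif1 did not pass it. By limma on log2(FPKM + 1) with Benjamini-Hochberg adjustment over all 14538 genes, 2 of the 4 genes were called lower (adjusted p under 0.05) and 0 were called higher, both at an unadjusted p under 0.05 and after limma's voom on recovered reads as well. The background was 6.12% of tested genes called lower and 7.02% called higher. Exact two-sided permutation tests of 3 against 3 libraries cannot go below p = 0.1, and gave 0.1 for Wfdc17, 0.1 for Mcub, 0.6 for Kcne3 and 0.9 for Aif1.

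Wfdc17 was at 61.3, 36.9 and 56.6 FPKM in CLP-cDC2 libraries, against 183, 127 and 109 FPKM in CDP-cDC2 libraries. No library of CLP-cDC2 reached the lowest of CDP-cDC2, and the group means were 51.6 ± 12.9 FPKM in CLP-cDC2 and 140.0 ± 38.4 FPKM in CDP-cDC2 (SD, n = 3 each). CLP-cDC2 minus CDP-cDC2 was -1.42 ± 0.20 on the log2 scale (SE; 95% confidence interval -1.86 to -0.98; limma adjusted p = 0.00106), the 134th lowest difference of the 14538 tested. The call held in all 26 alternative fits, that of the 2 groups alone among them, with adjusted p between 0.000255 and 0.0206. The CLP-cDC2 mean of Wfdc17 was 36.9% of the CDP-cDC2 mean; the shares were 54.2% for Mcub, 58.6% for Kcne3 and 103% for Aif1.

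Mcub was at 11.0, 7.78 and 8.90 FPKM in CLP-cDC2 libraries, against 16.5, 23.0 and 11.5 FPKM in CDP-cDC2 libraries. The groups did not overlap, but CLP-cDC2 replicate 1 and CDP-cDC2 replicate 3 lay close together. Absence of overlap with CLP-cDC2 lower, seen for Wfdc17 and Mcub, was found in 13.0% of all tested genes. CLP-cDC2 minus CDP-cDC2 was -0.78 ± 0.23 for Mcub (SE; 95% confidence interval -1.27 to -0.29; limma adjusted p = 0.0402), close to the threshold. The call was lost with any of 7 libraries left out of the limma fit: replicates 2 and 3 of CLP-cDC2 (adjusted p 0.145 and 0.092), 1 and 2 of CDP-cDC2 (0.0734 and 0.123), 3 of L-cDC2 (0.0568) and 1 and 2 of M-cDC2 (0.0509 and 0.0571). It was also lost with no filter on low values (adjusted p = 0.15), with the 2 groups fitted alone (0.114) and with quantile normalization (0.0554) in limma. The difference was -0.55 without CDP-cDC2 replicate 2 and -1.02 without CDP-cDC2 replicate 3.

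Kcne3 was at 1.74, 1.28 and 1.10 FPKM in CLP-cDC2 libraries, against 3.78, 2.78 and 0.468 FPKM in CDP-cDC2 libraries. CDP-cDC2 replicates 1 and 2 were above all CLP-cDC2 libraries and CDP-cDC2 replicate 3 was below all of them, at 34 reads. CLP-cDC2 minus CDP-cDC2 was -0.34 ± 0.35 (SE; 95% confidence interval -1.09 to 0.41; limma adjusted p = 0.558). Without CDP-cDC2 replicate 3 it was -0.85 and passed the test (limma adjusted p = 0.0318), and without CDP-cDC2 replicate 1 it was 0.0019 (adjusted p = 0.998). The Kcne3 result therefore rested on which CDP-cDC2 libraries were counted.

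Aif1 was at 34.8, 32.4 and 23.8 FPKM in CLP-cDC2 libraries, against 34.6, 35.1 and 18.8 FPKM in CDP-cDC2 libraries. The groups overlapped throughout, and replicate 3 was the lowest library in each. CLP-cDC2 minus CDP-cDC2 was 0.07 ± 0.22 (SE; 95% confidence interval -0.41 to 0.55; limma adjusted p = 0.857). The sign turned without CDP-cDC2 replicate 3 (-0.21) and without CLP-cDC2 replicate 1 (-0.03), with no call in either fit. Whether the difference by progenitor in transfer mice departs from that in reporter mice was not tested for the 4 genes, since the reporter difference chose them.

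**Figure D2:**
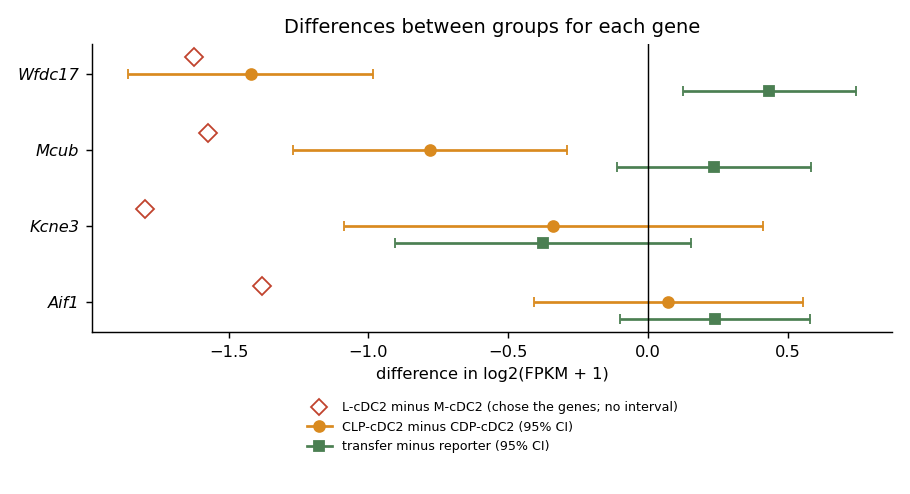
Differences in log2(FPKM + 1) for each gene (horizontal axis; bars are 95% confidence intervals from limma), with L-cDC2 minus M-cDC2 as open diamonds without an interval, CLP-cDC2 minus CDP-cDC2 as circles and transfer minus reporter as squares. The CLP-cDC2 minus CDP-cDC2 intervals of Wfdc17 (-1.86 to -0.98) and Mcub (-1.27 to -0.29) lie below 0 and those of Kcne3 and Aif1 cross it.

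**Figure D3:**
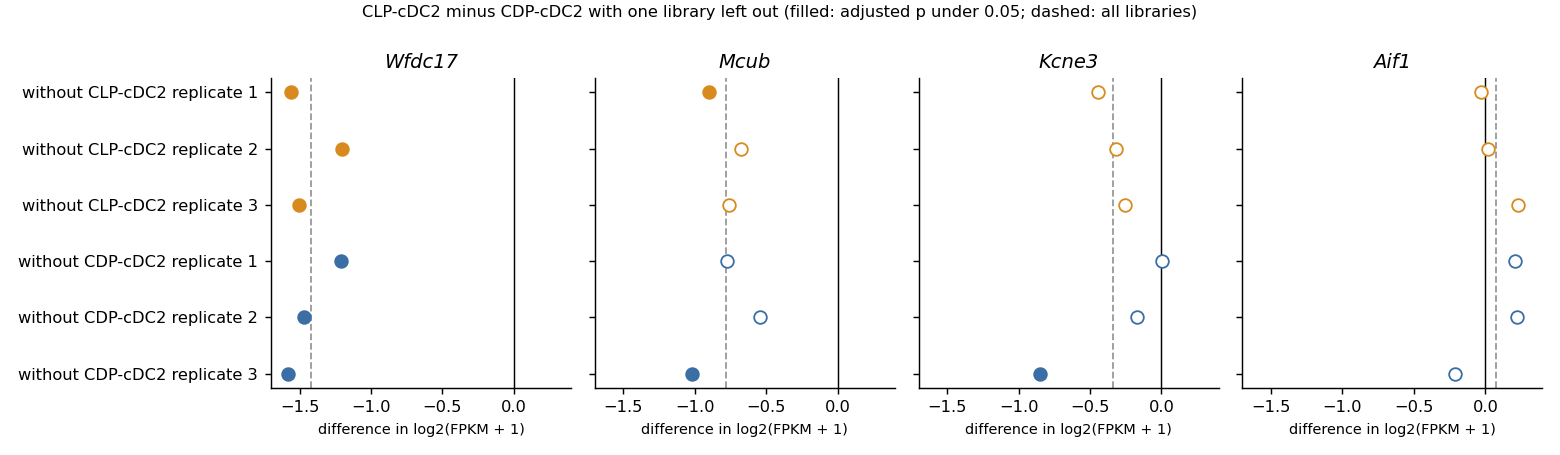
CLP-cDC2 minus CDP-cDC2 in log2(FPKM + 1) for each gene when the CLP-cDC2 or CDP-cDC2 library named at the left is omitted; filled points have a limma adjusted p under 0.05 and dashed lines give the value with all libraries. Wfdc17 stays filled throughout, while Kcne3 ranges from -0.85 to 0.0019 depending on the CDP-cDC2 library omitted.

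Over all tested genes, 64 were called lower in L-cDC2 against M-cDC2, and 33 of these were also called lower in CLP-cDC2 than in CDP-cDC2. The 4 genes were not left out of these counts, so nothing about them is read from the counts. These 33 made up 51.6% of the genes lower in L-cDC2 and 3.71% of the 889 genes lower in CLP-cDC2. Another 9 of the 64 were called higher in CLP-cDC2. Of all tested genes, 6.12% were called lower and 7.02% higher in CLP-cDC2.

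Transferred and reporter cells of like origin are set side by side here, with no test. The CLP-cDC2 mean exceeded the L-cDC2 mean by 0.54 for Wfdc17, 0.63 for Mcub, 0.35 for Kcne3 and 0.96 for Aif1 on the log2(FPKM + 1) scale. CLP-cDC2 and L-cDC2 libraries overlapped for Wfdc17 and Kcne3, and every CLP-cDC2 library was above every L-cDC2 library for Mcub and Aif1. CDP-cDC2 minus M-cDC2 was 0.33 for Wfdc17, -0.16 for Mcub, -1.11 for Kcne3 and -0.49 for Aif1. CDP-cDC2 and M-cDC2 libraries overlapped for Wfdc17 and Mcub, and every CDP-cDC2 library was below every M-cDC2 library for Kcne3 and Aif1. By mean level, Wfdc17 ran CDP-cDC2, M-cDC2, CLP-cDC2, L-cDC2 from high to low, with overlap between the first pair and between the last pair. Mcub ran M-cDC2, CDP-cDC2, CLP-cDC2, L-cDC2, with overlap only between the first pair. Kcne3 ran M-cDC2, CDP-cDC2, CLP-cDC2, L-cDC2, with overlap between each neighbouring pair except the first. Aif1 ran M-cDC2, CLP-cDC2, CDP-cDC2, L-cDC2, with overlap only between CLP-cDC2 and CDP-cDC2.

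Averaged over both lineages, none of the 4 genes passed limma's test between transferred and reporter cells, with 0 of 4 called in either direction against a background of 3.67% of tested genes called higher and 4.46% called lower. Only Wfdc17 had an unadjusted p under 0.05, and limma's voom on recovered reads called 0 of 4. Transfer minus reporter was 0.43 ± 0.14 for Wfdc17 (SE; 95% confidence interval 0.12 to 0.74; limma adjusted p = 0.083). It was 0.24 ± 0.16 for Mcub (-0.11 to 0.58; limma adjusted p = 0.415), -0.38 ± 0.24 for Kcne3 (-0.91 to 0.15; 0.393) and 0.24 ± 0.16 for Aif1 (-0.10 to 0.58; 0.399). The experiment, the host strain, the donor genotype and the transfer cannot be told apart in this comparison. Wfdc17 passed the threshold without CDP-cDC2 replicate 3 (0.51, limma adjusted p = 0.0346) or without CLP-cDC2 replicate 2 (0.54, adjusted p = 0.0236).

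The relatives and partners of each gene were followed through lists of named genes, read beside all tested genes, whose median log2 difference was 0.04 for L-cDC2 minus M-cDC2 and -0.01 for CLP-cDC2 minus CDP-cDC2. Among 12 WAP domain genes, relatives of Wfdc17 that include protease inhibitors, 10 were in the table and 2 were tested. Neither was called in either comparison by limma or by voom, with 1 higher in L-cDC2 and 1 lower in CLP-cDC2 at an unadjusted p under 0.05, and the medians of these 2 genes were 1.07 and -0.01. Slpi, the secretory leukocyte protease inhibitor, averaged 4.08 ± 1.17 FPKM in L-cDC2 and 0.199 ± 0.144 FPKM in M-cDC2 (SD, n = 3 each; limma adjusted p = 0.35), and 4.94 ± 7.30 FPKM in CLP-cDC2 against 1.41 ± 1.68 FPKM in CDP-cDC2. Wfdc21, the neighbour of Wfdc17 on chromosome 11, averaged 1.76 ± 0.230 FPKM in L-cDC2 and 1.64 ± 0.555 FPKM in M-cDC2, and 0.960 ± 0.235 FPKM in CLP-cDC2 against 2.29 ± 1.07 FPKM in CDP-cDC2. Wfdc18 stayed at group means of 0.0659 FPKM in L-cDC2, 0.354 in M-cDC2, 0.132 in CLP-cDC2 and 0.215 in CDP-cDC2, and 7 further members were under 0.1 FPKM in every library. By FPKM, Wfdc17 was the most abundant of the WAP domain transcripts measured, in each group.

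Of 12 tested genes of mitochondrial calcium uptake, the partners of Mcub, 0 were called in L-cDC2 against M-cDC2 in either direction by limma, at an unadjusted p under 0.05 or by voom, and their median was -0.01. Mcu, the pore that Mcub replaces, averaged 2.47 ± 0.160 FPKM in L-cDC2 and 2.52 ± 0.361 FPKM in M-cDC2, and 2.40 ± 0.473 FPKM in CLP-cDC2 against 2.15 ± 0.451 FPKM in CDP-cDC2. Mcub therefore had more transcript per unit of length than Mcu in every group. The small regulator Smdt1 averaged 183 ± 15.1 FPKM in L-cDC2 and 198 ± 18.3 FPKM in M-cDC2. In CLP-cDC2 against CDP-cDC2, 3 members were called higher and 1 lower, with a median of -0.04. The called higher members were the outer-membrane channels Vdac1 (0.73, limma adjusted p = 0.0064), Vdac2 (0.47, 0.010) and Vdac3 (0.54, 0.021). Mcur1, a scaffold of the uniporter, was the member called lower (-1.23, limma adjusted p = 0.0063), at 2.1 ± 0.595 FPKM in CLP-cDC2 and 6.36 ± 1.84 FPKM in CDP-cDC2. The Vdac3 call was lost without CLP-cDC2 replicate 2 or without CDP-cDC2 replicate 3 (limma adjusted p up to 0.0946).

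The potassium channel list, partners and relatives of Kcne3, held 19 genes, of which 18 were in the table and 5 were tested. Kcnq1, the best known partner of Kcne3, was under 0.1 FPKM in every library, as were Kcnq5, Kcnc4, Kcnma1 and the related subunits Kcne1, Kcne2 and Kcne4. No tested member was called in L-cDC2 against M-cDC2 by limma or voom, with 1 higher and 1 lower at an unadjusted p under 0.05 and a median of 0.34. In CLP-cDC2 against CDP-cDC2, 1 was called higher and 1 lower, with a median of -0.32. The calcium-activated channel Kcnn4 averaged 15.6 ± 2.72 FPKM in CLP-cDC2 and 7.66 ± 2.53 FPKM in CDP-cDC2 (log2 difference 0.97, limma adjusted p = 0.014). The tandem-pore channel gene Kcnk6 averaged 5.95 ± 0.658 FPKM in CLP-cDC2 and 10.6 ± 2.81 FPKM in CDP-cDC2 (-0.72, limma adjusted p = 0.031). The Kcnn4 call was lost without CLP-cDC2 replicate 1 (limma adjusted p = 0.0565), and the Kcnk6 call with any of 4 libraries left out (replicates 1 and 2 of CLP-cDC2, 2 and 3 of CDP-cDC2; up to 0.114).

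The actin list, 14 relatives of Aif1 in bundling and ruffling with 13 tested, had 2 members called higher and 0 lower in L-cDC2 against M-cDC2, with a median of 0.36. No member was lower at an unadjusted p under 0.05 or by voom. Aif1l, which encodes Iba2, the closest relative of Aif1, was higher in L-cDC2: it averaged 2.75 ± 0.509 FPKM in L-cDC2 and 0.146 ± 0.127 FPKM in M-cDC2 (log2 difference 1.71, limma adjusted p = 4.6e-05). It was among the tested genes only through L-cDC2, the group where it is high, and its log2 difference was 0.59 with a pseudocount of 5 and 5.68 by voom. After transfer Aif1l was near 0 in both groups, at 0.0181 ± 0.0314 FPKM in CLP-cDC2 and 0.0649 ± 0.0744 FPKM in CDP-cDC2. Capg, which caps actin filaments, was higher in both comparisons. It averaged 9.79 ± 2.32 FPKM in L-cDC2 and 2.29 ± 0.547 FPKM in M-cDC2 (1.70, limma adjusted p = 0.00079), and 5.45 ± 2.004 FPKM in CLP-cDC2 against 2.39 ± 0.253 FPKM in CDP-cDC2 (0.89, limma adjusted p = 0.022). The bundler Fscn1 (-1.69, limma adjusted p = 0.010) and the GTPase Rac1 (-2.10, 0.008) were called lower in CLP-cDC2 than in CDP-cDC2, and the list's median there was -0.14. The Capg call after transfer was lost without CLP-cDC2 replicate 1 or without CDP-cDC2 replicate 3 (limma adjusted p up to 0.0759).

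Part of the monocyte and macrophage list was lower in L-cDC2, and more than that in CLP-cDC2. Of 27 tested members of that list, which holds none of the 4, 6 were called lower and 0 higher in L-cDC2 against M-cDC2, with 0 higher also at an unadjusted p under 0.05 and by voom, and the median was -0.25. Over all tested genes 0.44% were called lower in this comparison. In CLP-cDC2 against CDP-cDC2, 17 of 27 were called lower and 0 higher, again with 0 higher at an unadjusted p under 0.05 and by voom, and the median was -1.05. Over all tested genes 6.12% were called lower there. The summed level of all 30 genes was 4390 to 4869 FPKM in L-cDC2 libraries, against 5184 to 5608 FPKM in M-cDC2 libraries. It was 3924 to 4404 FPKM in CLP-cDC2 libraries, against 5692 to 6826 FPKM in CDP-cDC2 libraries. Tyrobp and Fcer1g had the highest means of the list in each group, at 2103 and 870 FPKM in L-cDC2 against 2222 and 1019 FPKM in M-cDC2. Neither was called between L-cDC2 and M-cDC2, and both were called lower in CLP-cDC2 than in CDP-cDC2 (limma adjusted p = 0.049 and 0.00082). The sums therefore follow a few abundant genes. Of the list's macrophage genes, Mertk and Fcgr1 averaged under 1 FPKM in every group. Others were well expressed: Csf1r averaged 10.3 FPKM in L-cDC2, 18.4 in M-cDC2, 7.50 in CLP-cDC2 and 30.7 in CDP-cDC2. Adgre1 averaged 52.6 FPKM in L-cDC2, 48.8 in M-cDC2, 16.0 in CLP-cDC2 and 49.98 in CDP-cDC2. C1qb ranged from 0.0216 to 49.8 FPKM in CLP-cDC2 libraries, against 14.9 to 53.6 FPKM in CDP-cDC2 libraries. The part of monocytes or macrophages in the values of the 4 genes was not tested.

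Within the list, Lyz2, the myeloid lysozyme, averaged 106 ± 6.18 FPKM in L-cDC2 and 274 ± 11.3 FPKM in M-cDC2 (-1.36, limma adjusted p = 0.0087), and 66.6 ± 32.6 FPKM in CLP-cDC2 against 476 ± 69.8 FPKM in CDP-cDC2 (-2.91, limma adjusted p = 3.4e-05). The adhesion receptor Adgre4 was lower in both comparisons (-1.26 and -2.11, limma adjusted p = 0.0011 and 3e-05), as was Cd14, the LPS co-receptor (-1.23 and -1.33, 0.0069 and 0.0021). Ccr2, the chemokine receptor of inflammatory monocytes, was lower in L-cDC2 (-1.33, limma adjusted p = 0.028) and, as with Kcne3 and Aif1, not called after transfer (0.19, adjusted p = 0.69). The Clec4a3 lectin was lower in both comparisons (-1.09 and -2.02, limma adjusted p = 0.034 and 0.00037). Other members were called after transfer and not in the reporter mice, among them the complement gene C1qa (-2.02, limma adjusted p = 0.036) and the Fc receptor Fcgr3 (-1.90, 0.010). In L-cDC2 against M-cDC2 the Ccr2 call was lost with any of 4 libraries left out (replicates 2 and 3 of L-cDC2, 1 and 2 of M-cDC2; limma adjusted p up to 0.154). The Clec4a3 call was lost with any of these or replicate 3 of M-cDC2, 1 of CLP-cDC2 or 2 of CDP-cDC2 left out (up to 0.176). For C1qa it was lost with replicate 2 of M-cDC2, 1 or 3 of CLP-cDC2 or any CDP-cDC2 library left out (up to 0.121).

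**Figure D4:**
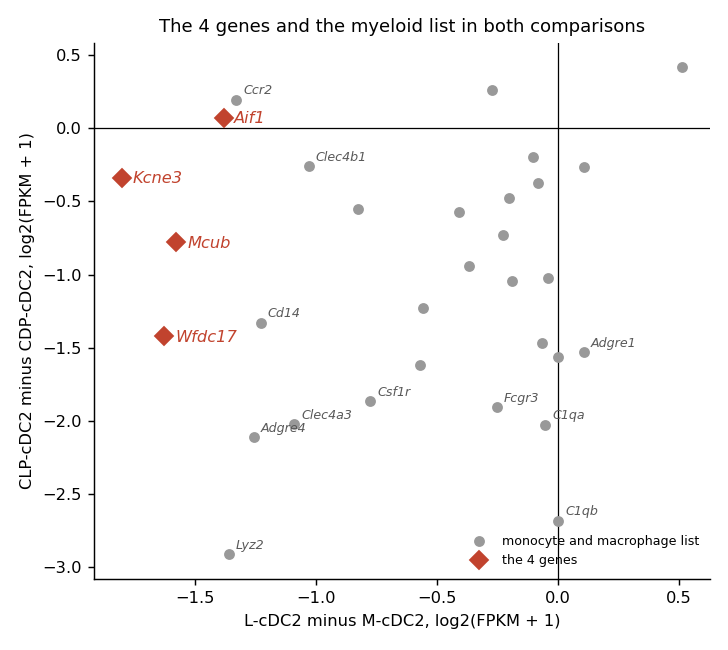
L-cDC2 minus M-cDC2 (horizontal axis) against CLP-cDC2 minus CDP-cDC2 (vertical axis), both in log2(FPKM + 1), for the 4 genes (red diamonds) and the 27 tested genes of the monocyte and macrophage list (grey points). The 4 genes lie between -1.80 and -1.38 on the horizontal axis, which chose them, and spread from -1.42 (Wfdc17) to 0.07 (Aif1) on the vertical axis.

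Among 13 tested myeloid transcription factors, 1 was called lower and 0 higher in L-cDC2 against M-cDC2, with 0 higher at an unadjusted p under 0.05 and by voom and a median of 0.02. Spi1 averaged 366 ± 26.8 FPKM in L-cDC2 and 378 ± 38.9 FPKM in M-cDC2 (limma adjusted p = 0.93). The factor called lower was Irf8, which directs cDC1 and plasmacytoid cells, at 29.8 ± 1.29 FPKM in L-cDC2 and 58.3 ± 1.95 FPKM in M-cDC2 (-0.95, limma adjusted p = 0.033). In CLP-cDC2 against CDP-cDC2, 3 were called higher and 4 lower, with a median of -0.41. Those higher were Irf8 (1.10, limma adjusted p = 0.005), the HLH inhibitor Id2 (0.74, 0.021) and Mef2c (0.71, 0.025). Those lower were the NF-kB subunit Relb (-1.05, limma adjusted p = 0.00028), Runx1 (-0.80, 0.005), Zeb2 (-0.63, 0.048) and Spi1. Spi1 averaged 269 ± 11.0 FPKM in CLP-cDC2 and 381 ± 55.0 FPKM in CDP-cDC2 (-0.49, limma adjusted p = 0.023). The Irf8 call in L-cDC2 against M-cDC2 was lost without any single library of those groups (limma adjusted p up to 0.142). After transfer, leaving out replicate 1 or 2 of CLP-cDC2 ended the calls of Id2, Mef2c and Spi1 (up to 0.0773, 0.1 and 0.0849). So did replicate 3 of CDP-cDC2 for Id2 and Mef2c, 2 for Id2 and Spi1 and 1 for Spi1. The Zeb2 call lay closest to the threshold, and fits without single libraries are not given for it.

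The lists for other dendritic and blood cell types were counted in the same way. Over all tested genes, 1.29% were called higher and 0.44% lower in L-cDC2, and 7.02% higher and 6.12% lower in CLP-cDC2. Between L-cDC2 and M-cDC2, members called higher and lower numbered 1 and 1 of 15 tested for cDC2 identity, 0 and 5 of 10 for cDC1, and 1 and 0 of 7 for plasmacytoid cells. They numbered 5 and 0 of 8 for B cells, 5 and 0 of 6 for plasma cells, 8 and 0 of 11 for NK cells and ILCs, and 5 and 0 of 7 for T cells. Some of those called higher, among them Gzmb, Prf1, Ncr1, Klrb1c and Cd247, reached 1 FPKM in L-cDC2 libraries only. Such genes were tested only through the group where they are high, so the lymphoid counts are not read against the share of all genes. Between CLP-cDC2 and CDP-cDC2 the members called higher and lower numbered 1 and 10 for cDC2 identity, 6 and 0 for cDC1, 2 and 0 for plasmacytoid cells, 5 and 0 for B cells, 0 and 0 for plasma cells, 1 and 2 for NK cells and ILCs, and 2 and 0 for T cells. No tested member was called in either comparison for neutrophils (2 tested) or for erythroid cells and platelets (4 tested). The B cell list summed to 197 to 218 FPKM in L-cDC2 libraries, against 79.2 to 82.6 FPKM in M-cDC2 libraries. With the lymphoid lists and receptor genes removed, CLP-cDC2 minus CDP-cDC2 was -1.42 for Wfdc17 (limma adjusted p = 0.000948) and -0.78 for Mcub (0.0388). The removed genes held at most 0.504% of assigned reads in any library, so these values could hardly move. The part of other cells was not tested.

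The genes next to the 4 were called about as often as all genes after transfer. Of the 24 nearest tested protein-coding genes (3 on each side of each gene), 1 was called lower and 0 higher in L-cDC2 against M-cDC2, and 2 were called lower and 1 higher in CLP-cDC2 than in CDP-cDC2. Over all tested genes the shares were 0.44% lower and 1.29% higher in L-cDC2, and 6.12% lower and 7.02% higher in CLP-cDC2. The neighbour called lower in both was Ccl6, a CC chemokine gene 110903 bases from Wfdc17 in the deposited coordinates. Ccl6 averaged 16.1 ± 2.01 FPKM in L-cDC2 and 41.3 ± 1.79 FPKM in M-cDC2 (-1.31, limma adjusted p = 0.0033), and 29.9 ± 9.65 FPKM in CLP-cDC2 against 53.0 ± 11.1 FPKM in CDP-cDC2 (-0.83, adjusted p = 0.021). Ccl3, Ccl4, Wfdc21, Heatr6 and Ddx52, the other neighbours of Wfdc17, were not called. Casp6, which lies 856 bases from Mcub, was not called in either comparison. Of the neighbours of Mcub only Ostc was called, higher in CLP-cDC2 (0.53, limma adjusted p = 0.036), and it lies 725705 bases away. Of the 6 neighbours of Kcne3, none was called in either comparison. Near Aif1, in the major histocompatibility region, Prrc2a at 6093 bases and Lst1 at 9026 bases were not called, and Tnf was lower in CLP-cDC2 than in CDP-cDC2 (-0.76, limma adjusted p = 0.021). The calls after transfer were lost with single libraries left out. For Ccl6 these were replicates 1 and 2 of CLP-cDC2 and 1 and 2 of CDP-cDC2 (limma adjusted p up to 0.0909), and for Tnf replicates 1 and 2 of CLP-cDC2 and 2 and 3 of CDP-cDC2 (up to 0.0786). For Ostc they were replicates 1 and 3 of L-cDC2, 2 of M-cDC2, 2 and 3 of CLP-cDC2 and 3 of CDP-cDC2 (up to 0.113).

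**Figure D5:**
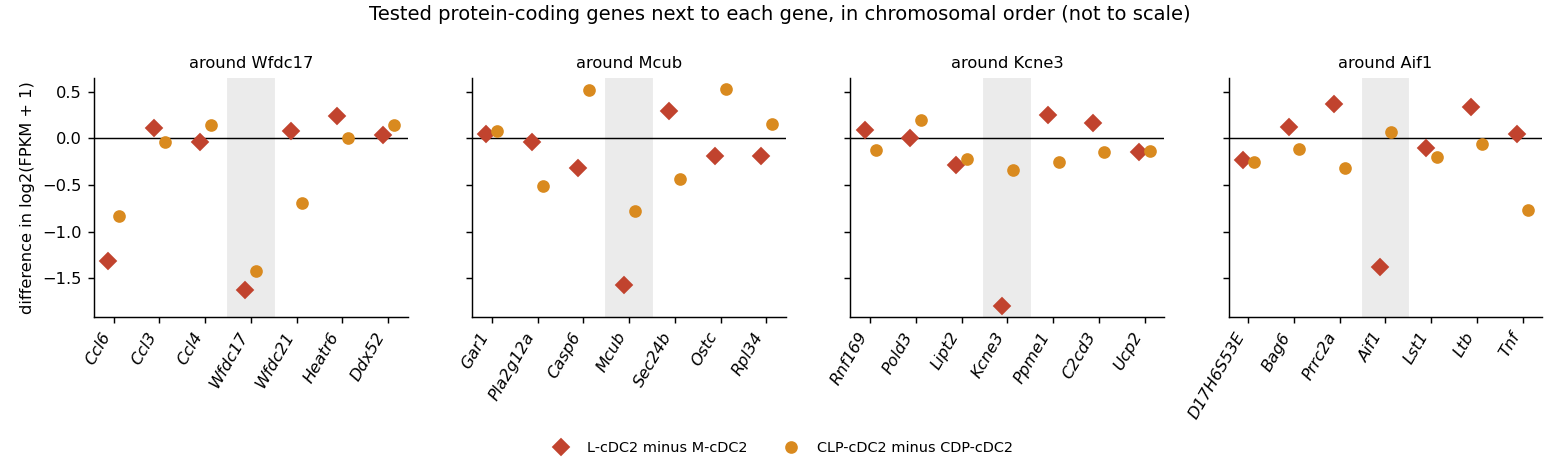
Differences in log2(FPKM + 1) for each of the 4 genes (grey band) and the 3 nearest tested protein-coding genes on each side, in chromosomal order and not to scale, as diamonds for L-cDC2 minus M-cDC2 and circles for CLP-cDC2 minus CDP-cDC2. The 24 neighbours range from -1.31 to 0.37 for L-cDC2 minus M-cDC2, with Ccl6 the lowest.

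Pearson's r of log2(FPKM + 1) over the 12 libraries was 0.911 between Wfdc17 and Mcub, 0.832 between Kcne3 and Aif1, 0.831 between Mcub and Aif1, 0.784 between Mcub and Kcne3, 0.675 between Wfdc17 and Kcne3 and 0.666 between Wfdc17 and Aif1. The choice of the genes fixes part of these values, because the L-cDC2 and M-cDC2 libraries are among the points. Over the 6 transfer libraries alone, which the rule of choice did not use, r was 0.838 for Wfdc17 with Mcub and 0.838 for Kcne3 with Aif1. In those libraries it was 0.675 for Mcub with Kcne3, 0.520 for Wfdc17 with Kcne3, 0.376 for Mcub with Aif1 and 0.0465 for Wfdc17 with Aif1. These are descriptions over libraries that share groups and CDP-cDC2 replicate 3, and no p is given.

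The most similar genes were sought by Pearson's r over the 12 libraries among 5791 protein-coding genes with a mean of at least 5 FPKM. For Wfdc17 they were Ifitm2 (0.956), Lgals3 (0.939), Slamf9 (0.938), Tmem176a (0.932) and Ccl6 (0.923). Lgals3, which encodes galectin-3, a lectin abundant in macrophages, averaged 120 ± 6.57 FPKM in L-cDC2 and 238 ± 15.1 FPKM in M-cDC2, and 121 ± 23.0 FPKM in CLP-cDC2 against 256 ± 62.2 FPKM in CDP-cDC2. For Mcub they were Tmem176b (0.933), Ralb (0.927), the chemokine gene Ccl9 (0.923), Cdk2ap2 (0.922) and Wfdc17 itself (0.911). For Kcne3 they were the copper transporter gene Slc31a2 (0.933), Cd300c (0.897), Ccr2 (0.890), Plin3 (0.889) and Anxa1 (0.871). For Aif1 they were the fructokinase gene Khk (0.954), Clec4b1 (0.921), Slc66a1 (0.901), Acvrl1 (0.897) and the protease inhibitor gene Cst3 (0.895). These genes were chosen by their values in all 4 groups, so their differences between groups are not read as results.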

How the data were processed

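Per the labels' protocols, 12 RNA-seq libraries of splenic cDC2 were prepared by SMART-Seq HT amplification and Nextera XT. The authors deposited FPKM for 55322 genes. Per the submitters' processing notes, STAR 2.7.9a, DESeq2 1.20.0, featureCounts 2.0.1, cutadapt 3.7, Trimmomatic 0.39, Trim Galore 0.6.7, GRCm38 and GRCh38 were used, in roles and order not stated. Of 52046 gene identifiers shared with GENCODE M21, 1462 had the deposited chromosome and start, so the build of the deposited coordinates is not given. The 12 value columns all matched labels, and 0 were unmapped.

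All deposited FPKM values were multiples of a per-library step taken as 0.01 read (tolerance 0.02 steps), which gave 26543345 to 73732243 assigned reads per library. This takes the commonest low value as 1 read. Only 44.8 to 53.2% of genes above 0 then have whole reads, so reads quoted per gene are estimates. A floor of 3 reads covers counting error only. Values were analysed as log2(FPKM + 1), keeping genes with at least 1 FPKM in at least 3 libraries (14538 genes, 10113 of them protein-coding).

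limma 3.58.1 (R 4.3.3) fitted 4 group means over 12 libraries with trend, two-sided, with Benjamini-Hochberg adjustment over all genes tested and a threshold of 0.05. Contrasts were L-cDC2 minus M-cDC2 (for other genes, not the 4), CLP-cDC2 minus CDP-cDC2, transfer minus reporter, and, for other named genes, the difference between the first pair. Single values were compared by exact permutation tests. The 4 genes, the gene lists and the tests were chosen with earlier results of these data known. Text names the 4 genes, called members of the partner lists, up to 5 called members of the monocyte and macrophage and transcription factor lists per contrast, fixed partners, 3 neighbours per side and 5 similar genes each. Other list members, among them Zeb2, Csf1r, Adgre1, C1qb, Mertk, Fcgr1, Tyrobp, Fcer1g, Flt3, Sirpa, Zbtb46 and Mgl2, are named as description outside this rule. Alternatives were other pseudocounts, filters and scalings, 2 groups alone, array weights, a replicate block, no trend, voom on recovered reads, protein-coding genes alone, and fits without lymphoid genes or without libraries. The fit was tested on simulated data. Sequences are RefSeq's. Some listed genes are not reported here.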

Additional observations from a re-analysis of the deposited data

Results flagged for a closer look

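The difference between L-cDC2 minus M-cDC2 and CLP-cDC2 minus CDP-cDC2 passed limma's test (adjusted p over all genes tested) for 11 genes named from the partner, monocyte and macrophage, and transcription factor lists. The 4 genes themselves were not put to this test, since L-cDC2 minus M-cDC2 chose them. Values below are the first difference minus the second, in log2(FPKM + 1).

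Partners of Mcub moved apart in both directions: the value was 1.73 for Mcur1 (limma adjusted p = 0.015) and -0.75 for Vdac1 (0.048). Among potassium channels it was -1.68 for Kcnn4 (limma adjusted p = 0.011) and 1.10 for Kcnk6 (0.037). Among actin genes it was 1.77 for Aif1l (limma adjusted p = 0.0013), 2.13 for Fscn1 (0.033) and 2.82 for Rac1 (0.021). Among monocyte and macrophage genes it was 1.55 for Lyz2 (limma adjusted p = 0.023), which was lower in both comparisons and more so after transfer, and -1.52 for Ccr2 (0.043). Among transcription factors it was -2.04 for Irf8 (limma adjusted p = 0.0028), which was lower in L-cDC2 and higher in CLP-cDC2, and 1.07 for Relb (0.0045).

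Several of these rest on single libraries. The call was lost without any one of 10 libraries for Vdac1 (limma adjusted p up to 0.125; all but L-cDC2 replicate 3 and CDP-cDC2 replicate 2). It was lost without any one of 9 for Kcnk6 (up to 0.101; all but L-cDC2 replicate 1, M-cDC2 replicate 1 and CDP-cDC2 replicate 1) and 9 for Ccr2 (up to 0.113; all but CLP-cDC2 replicate 2 and CDP-cDC2 replicates 1 and 2). For Fscn1 the 7 libraries were all of L-cDC2, M-cDC2 replicates 1 and 2 and CLP-cDC2 replicates 2 and 3 (up to 0.0886). Rac1 lost it with replicate 2 or 3 of L-cDC2 or 2 of CLP-cDC2 left out (up to 0.0573), and Lyz2 with replicate 2 or 3 of L-cDC2 or 2 of M-cDC2 left out (up to 0.0625). With no filter on low values 8 of the 11 lost the call, the exceptions being Aif1l, Irf8 and Relb (limma adjusted p 0.0616 for Kcnn4 to 0.167 for Ccr2 among those lost). Aif1l, which was tested only through its level in L-cDC2, was 0.60 with a pseudocount of 5 and 7.75 by voom, where the call was lost (adjusted p = 0.0504). The causes were not tested.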

How the results depend on the processing

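Across 26 alternatives Wfdc17 was called lower in CLP-cDC2 than in CDP-cDC2 each time (-1.58 to -1.20 with 1 library left out). Mcub lost its call with no filter (-0.78, limma adjusted p = 0.15), quantile normalization (-0.74, 0.0554), the 2 groups alone (-0.78, 0.114) and the replicate block (-0.78, 0.0724), and ranged from -1.02 to -0.55 with 1 library left out. With replicate 3 of CDP-cDC2 and of M-cDC2 both left out, Kcne3 was called lower (-0.85, limma adjusted p = 0.0302). With 1 library left out Kcne3 ranged from -0.85 to 0.0019 and Aif1 from -0.21 to 0.23, and Aif1 was -0.13 with array weights and -0.21 without those 2 libraries (neither called). Under the filter of at least 5 FPKM Kcne3 could not be tested. Between libraries of like replicate number, correlations of deviations were -0.22 to 0.13 for L-cDC2 and M-cDC2 and -0.03 to 0.28 for CLP-cDC2 and CDP-cDC2. With 3 libraries per group they cannot show whether libraries were paired, for example by mouse. With the replicate block Wfdc17 kept its call (limma adjusted p = 0.00345) and Kcne3 and Aif1 had none (0.572 and 0.863).

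Transfer minus reporter was called for Wfdc17 with quantile normalization (0.47), array weights (0.44) and without those 2 libraries (0.52), and ranged from 0.33 to 0.54 with 1 library left out. It was called for Mcub with array weights (0.46), and for Aif1 (0.16 to 0.38 with 1 library left out) with array weights (0.39) and without those 2 libraries (0.43). Fits of 2 groups alone give it no value.

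L-cDC2 minus M-cDC2, given without a test, stayed negative for the 4 genes in all alternatives. It moved by more than the replicate spread for Mcub with a pseudocount of 5 (-1.16), and for Kcne3 with pseudocounts of 0.1 (-2.59) and 5 (-0.83) and by voom (-2.61).

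Called genes in L-cDC2 against M-cDC2 were 188 higher and 64 lower. Higher calls were 84 at 5 FPKM, 538 with array weights, 110 among protein-coding genes and 89 without lymphoid genes. Lower calls were 35 with no filter, 300 with array weights and 29 to 80 with 1 library left out. In CLP-cDC2 against CDP-cDC2 they were 1021 higher and 889 lower, 576 and 491 with no filter, 312 and 375 in 2 groups alone, and 483 to 1071 and 500 to 912 with 1 library left out. For transfer minus reporter they were 534 higher and 649 lower, 212 and 396 with no filter, 1365 and 1343 with array weights, 346 higher at 5 FPKM, and 279 to 740 and 441 to 852 with 1 library left out; without those 2 libraries 756 were higher. With the replicate block they were 173 and 52, 718 and 646, and 380 and 505 in the same order.

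Signs turned for 4 genes that were not called. Mcu became 0.0576 for L-cDC2 minus M-cDC2 with array weights and -0.0391 for CLP-cDC2 minus CDP-cDC2, and with 1 library left out ranged from -0.0786 to 0.0639 and from -0.00012 to 0.223. Wfdc21 became -0.0286 for L-cDC2 minus M-cDC2 with quantile normalization, -0.132 with array weights, and -0.0768 without M-cDC2 replicate 3 (to 0.231 with other single libraries left out) or without those 2 libraries. Slpi was -0.61 for CLP-cDC2 minus CDP-cDC2 by voom and -0.39 without CLP-cDC2 replicate 2 (to 1.53 with other single libraries left out). Spi1 was 0.0178 for L-cDC2 minus M-cDC2 without L-cDC2 replicate 1 and 0.0382 without M-cDC2 replicate 3, alone or with CDP-cDC2 replicate 3 (-0.0961 at the lowest with 1 library left out). The causes were not tested. Depth limits Kcne3 most, with 26 to 535 reads per library.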
